A study of Mus musculus with 12 samples.

Results

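The genes described here are the 37 genes of the mouse mitochondrial genome, taken as every gene whose symbol starts with mt- and matched by Ensembl gene ID. They comprise 13 coding genes, 2 rRNA genes and 22 tRNA genes among the 56,941 genes of the deposited table, and all 37 passed the filter on low counts together with 20,034 genes in all. RNA of mandibular lymph nodes, which drain the head and ear, was sequenced in 12 libraries from 4 groups of 3. WT_se is wild-type mice sensitized with 100 µl of 0.5% DNFB (1-fluoro-2,4-dinitrobenzene, a contact sensitizer) on the shaved abdomen on days 0, 1 and 2 and taken on day 9. WT_DTH is wild-type mice sensitized in the same way, challenged on the left ear with 20 µl of 1% DNFB on day 9 and taken on day 10, 24 h later, in a delayed-type hypersensitivity (DTH) response. KO_se and KO_DTH are miR-451a knockout mice in the same states. Mir451a was not analysed here, which leaves the genotype labels without a check by the deleted gene. All 4 groups were therefore sensitized, none was left naive, and the challenge cannot be told apart from the 1 day of difference in harvest. The labels give no strain, age, sex, allele or number of animals per library, so the spread behind each p-value is that between these libraries, which may be technical.

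Mitochondrial DNA is a small circular genome read from both strands as long transcripts, which are cut at the tRNAs that lie between the other genes. Its coding genes all make subunits of the oxidative phosphorylation complexes in the inner membrane, where they join a larger number of subunits made from nuclear genes. Its rRNAs and tRNAs serve the translation of those coding genes inside the organelle. Lymphocytes raise their use of oxidative phosphorylation and glycolysis when they are activated, while the secretory cells of the salivary glands, which lie beside these nodes, are rich in mitochondria.

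The tRNAs on which the results below turn fall into 3 sets. Their sequences, from the GENCODE M21 transcripts, are shown with the anticodon in capitals, since these genes are short and a read that reaches one can also belong to a neighbour on the same long transcript. The first is mt-Tl1, a leucine tRNA between the larger rRNA gene and mt-Nd1, which was lower after challenge in both genotypes.
mt-Tl1: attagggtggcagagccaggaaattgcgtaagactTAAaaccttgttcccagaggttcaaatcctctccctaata
The second is a run of neighbours between mt-Nd2 and mt-Co1, on the strand opposite to both, whose levels moved little when the coding genes fell (alanine, asparagine, cysteine and tyrosine tRNAs).
mt-Ta: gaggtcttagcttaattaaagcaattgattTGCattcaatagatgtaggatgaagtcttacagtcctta
mt-Tn: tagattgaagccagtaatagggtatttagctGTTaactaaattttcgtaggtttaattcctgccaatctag
mt-Tc: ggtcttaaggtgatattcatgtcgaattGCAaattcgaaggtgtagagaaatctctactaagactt
mt-Ty: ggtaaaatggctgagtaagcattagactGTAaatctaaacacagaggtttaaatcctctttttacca
The third is the run of histidine, serine and leucine tRNAs between mt-Nd4 and mt-Nd5, with mt-Te, a glutamate tRNA between mt-Nd6 and mt-Cytb. These 4 were the only genes of the 37 called higher in KO_DTH than in WT_DTH. Each was called in only 1 of 6 fits that left out a challenged library. Other genes had differences of similar size that did not pass, such as mt-Nd3 (log2 fold change 1.59, adjusted p = 0.0555, edgeR).
mt-Th: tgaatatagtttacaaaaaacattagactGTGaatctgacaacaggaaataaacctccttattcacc
mt-Ts2: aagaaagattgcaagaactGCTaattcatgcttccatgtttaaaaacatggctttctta
mt-Tl2: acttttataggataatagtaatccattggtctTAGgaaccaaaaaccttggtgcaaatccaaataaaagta
mt-Te: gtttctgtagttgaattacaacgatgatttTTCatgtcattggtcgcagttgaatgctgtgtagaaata
With only 59 bases, mt-Ts2 was the shortest of the 37.

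Library totals were 36.9 to 58.4 M estimated counts, so counting error was small for every coding gene and rRNA. Markers of T cells, B cells, myeloid cells and lymph node stroma were present in all libraries. Markers of the salivary gland, a tissue that the label does not name, were also present in every library and made 2.08 to 14.5% of counts. Markers of skeletal muscle made at most 0.00141% and of brown fat at most 0.000704%, with Myh1 and Elovl3 at 0 in every library. Markers of red cells, which lose their mitochondria as they mature, made 0.144 to 1.55%.

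The mitochondrial genes together held 19.4%, 18.4% and 14.0% of all counts in the WT_se libraries and 4.53%, 6.02% and 5.32% in the WT_DTH libraries. The share was 16.3%, 12.2% and 13.4% in KO_se and 10.3%, 16.0% and 5.75% in KO_DTH. The WT_DTH libraries lay below every WT_se library, with group means of 5.29% ± 0.746 against 17.3% ± 2.88 (SD, n = 3), a 3.27-fold difference. KO_se averaged 13.9% ± 2.12 and KO_DTH 10.7% ± 5.16 (SD, n = 3), and these groups overlapped each other and WT_se. The KO_DTH libraries spread most, from the WT_DTH range in replicate 3 to the level of the sensitized groups in replicate 2. Nearly all of the share came from the coding genes, since the rRNA genes held 0.113 to 0.251% and the tRNA genes 0.0354 to 0.0891% of counts. How rRNA was removed from the libraries is not given in the sources used here. In bulk tissue fewer cells of a type and less mitochondrial RNA per cell cannot be told apart.

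**Figure D1:**
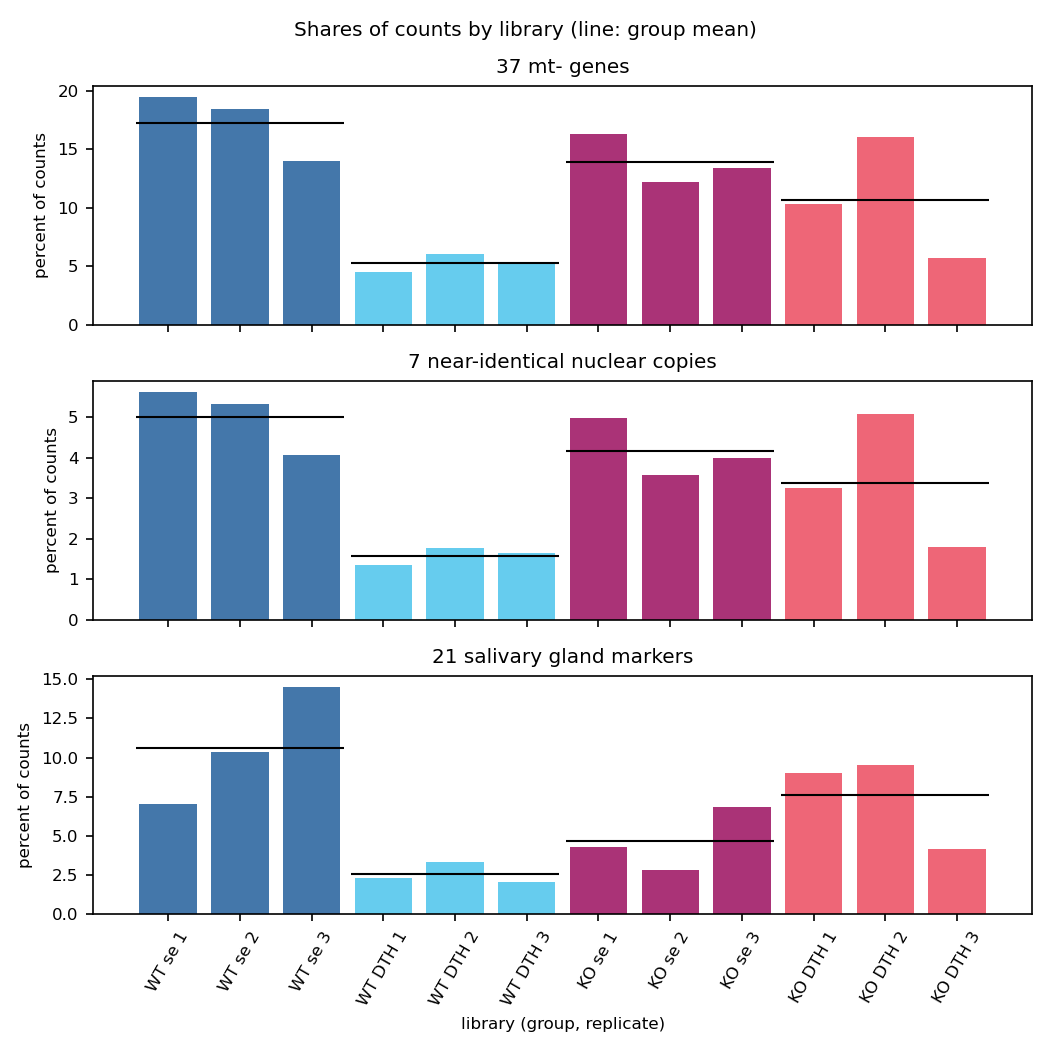
Percent of all counts held by the 37 mitochondrial genes (top), their 7 near-identical nuclear copies (middle) and 21 salivary gland markers (bottom) in each of the 12 libraries, with a line at each group mean. The 3 WT_DTH bars of the top panel, at 4.53 to 6.02%, lie under all 3 WT_se bars, and the KO_DTH bars run from 5.75 to 16.0%.

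The salivary gland markers moved with the mitochondrial share between the wild-type groups. They held 7.05%, 10.3% and 14.5% of counts in WT_se and 2.34%, 3.38% and 2.08% in WT_DTH. The knockout libraries had 4.29%, 2.85% and 6.87% (KO_se) and 9.05%, 9.54% and 4.17% (KO_DTH). Within WT_se the order was reversed, as the library with the least salivary RNA had the highest mitochondrial share. The libraries KO_se replicate 2 and WT_DTH replicate 2 had salivary shares of 2.85% and 3.38% and mitochondrial shares of 12.2% and 6.02%. Single salivary genes did not all follow the sum. Within groups, Bpifa2 departed from the order of the sum only in WT_se, but between groups it departed more widely. KO_DTH replicate 3 had a larger salivary sum than every WT_DTH library and a lower Bpifa2 level than all of them. KO_DTH replicate 1 had a larger sum than WT_se replicate 1 and a lower Bpifa2 level. Bpifa2, a secreted salivary protein and one of the most abundant of the markers, stood at 42963, 65225 and 58728 CPM (counts scaled to library size with TMM factors) in WT_se and at 11574, 17897 and 10978 CPM in WT_DTH. Its values were 26050, 15917 and 31442 CPM in KO_se and 19927, 43606 and 7992 CPM in KO_DTH. Among the KO_DTH libraries Bpifa2, the salivary sum and the mitochondrial share all had the same order. The part of this tissue in the mitochondrial results was not tested apart from the fits with a salivary score given below. Without the salivary markers in the total, the mitochondrial share was 19.3% in WT_se and 5.43% in WT_DTH.

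**Figure D2:**
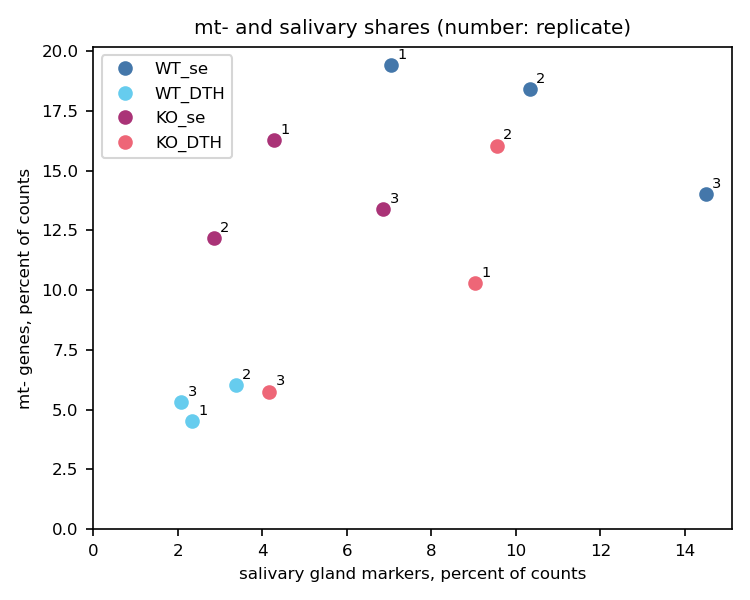
Percent of counts held by the mitochondrial genes against the percent held by 21 salivary gland markers, with 1 point per library coloured by group and numbered by replicate. The WT_DTH libraries lie low on both axes, while KO_se libraries at 2.85 to 6.87% salivary RNA lie at 12.2 to 16.3% mitochondrial RNA.

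Some of these counts have a second home in the nuclear genome. Of nuclear genes in GENCODE M21, 11 matched at least 100 bases of a mitochondrial gene at 95% identity or more, and 7 of them, all on chromosome 1, did so at 99% or more. These 7 held 1.34 to 5.63% of counts. Gm28661, Gm28437, Gm10925, Gm28438 and Gm10222, copies of mt-Co2, mt-Co3, mt-Atp6, mt-Nd3 and mt-Nd4l, had 98.9 to 102% of the counts of their mitochondrial gene. Gm28439, which matches 876 bases of mt-Nd4, had 35.9% of its counts, and Gm29216, which matches 483 bases of mt-Co1, had 15.4%. The 4 copies of lower identity, Gm13339, Gm13340, Gm13341 and Gm4076, had at most 0.0768%. Counts of a near-identical pair could have been split or credited to both, since the counting rule is not given in the sources used here. Levels of these 7 mitochondrial genes are therefore uncertain by up to about the count of the copy. Adding the copies raised the share to 22.3% and 6.87% in WT_se and WT_DTH and to 18.1% and 14.1% in KO_se and KO_DTH, and left the number of genes called in each comparison as it was.

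**Figure D3:**
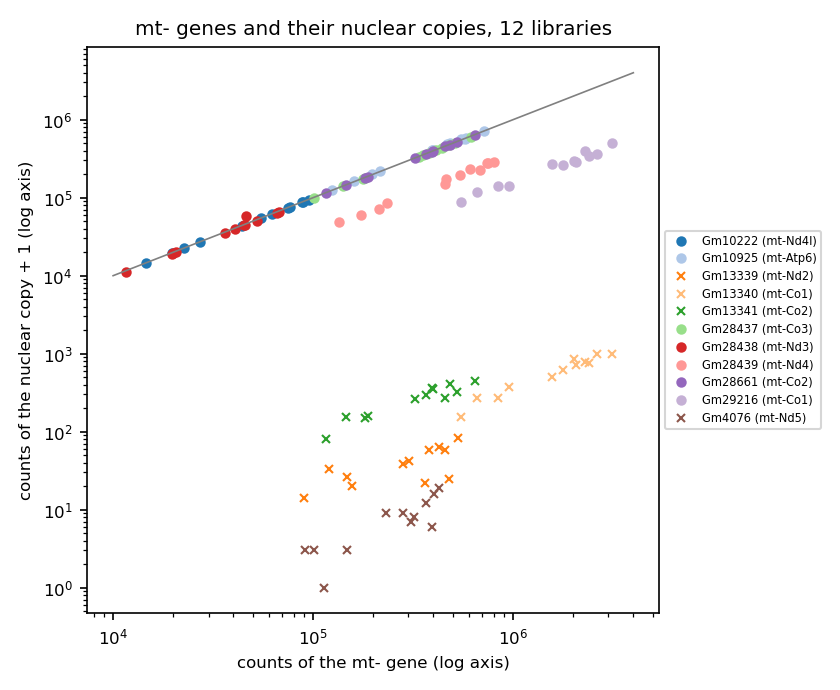
Counts of each nuclear copy (plus 1) against counts of its mitochondrial gene in the 12 libraries, on log axes, with dots for the 7 copies of at least 99% identity, crosses for the 4 others and a line of equal counts. Copies of mt-Co2, mt-Co3, mt-Atp6, mt-Nd3 and mt-Nd4l lie along the line, at 98.9 to 102% of the summed counts.

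Per kilobase of gene and averaged over the 12 libraries, the most abundant coding gene was mt-Co1, the catalytic subunit of cytochrome c oxidase, at 25576 CPM per kb. It was followed by mt-Cytb (14835 CPM per kb), the mitochondrial subunit of complex III, and mt-Atp6 (13491), mt-Co2 (11633), mt-Nd1 (10531) and mt-Co3 (9937). Lower levels were found for mt-Nd4 (8051), mt-Atp8 (7802), mt-Nd2 (6846), mt-Nd4l (4336), mt-Nd6 (3723) and mt-Nd5 (3323), with mt-Nd3 lowest at 2552 CPM per kb. Within single libraries, mt-Co1 was above mt-Cytb in 12 of 12 (1.58 to 2.01 times as high), and mt-Nd2 above mt-Nd4l in 12 of 12 (1.41 to 1.87 times). Other neighbours lay closer, and 6 of the 12 neighbouring pairs changed places in at least 1 library, for example mt-Nd4l and mt-Nd6, which kept this order in 7 of 12. With the near-identical copies added, mt-Cytb moved from rank 2 to rank 5 and mt-Nd3 from rank 13 to rank 11, while mt-Co1 kept rank 1. The genes mt-Atp8 and mt-Atp6 share 43 bases on the same strand, so reads from this stretch cannot be given to one of them. The shared bases, the end of mt-Atp8 and the start of mt-Atp6, are shown here.
mt-Atp8 and mt-Atp6: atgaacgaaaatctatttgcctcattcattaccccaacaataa
Smaller overlaps were 7 bases for mt-Nd4l and mt-Nd4 on the same strand, and 14 bases for mt-Nd5 and mt-Nd6 on opposite strands.

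Challenge of wild-type mice was set against sensitization alone to ask what the ear challenge changes in the draining node. All 13 coding genes were lower in WT_DTH, by a median log2 fold change of -2.07 (range -2.50 to -1.88). Both rRNA genes and 13 of the 22 tRNA genes were lower as well, so 28 of the 37 genes fell and none rose in edgeR's quasi-likelihood test (Benjamini-Hochberg adjusted p under 0.05). Of all genes tested 8.97% were called lower, and their median log2 fold change was -0.01. These 28 genes share transcripts, reads and libraries and are not 28 independent results.

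Among subunits of complex I, which passes electrons from NADH to ubiquinone, mt-Nd4l had the largest fall. It stood at 2745, 2380 and 1830 CPM in WT_se and 332, 501 and 396 CPM in WT_DTH, with 1581, 1183 and 1327 CPM in KO_se and 876, 1826 and 476 CPM in KO_DTH. The wild-type groups did not overlap, and the log2 fold change was -2.50 ± 0.37 (SE, adjusted p = 0.000776, edgeR). For mt-Nd5, a proton-pumping subunit, the values were 11590, 10491 and 8774 CPM in WT_se and 2075, 2702 and 1997 CPM in WT_DTH. In the knockout it stood at 7583, 6033 and 6865 CPM when sensitized and 4597, 7597 and 2432 CPM when challenged. The highest WT_DTH library of mt-Nd5 was far under the lowest WT_se library, and its log2 fold change was -2.19 ± 0.31 (adjusted p = 0.000514, edgeR). The one coding gene on the other strand, mt-Nd6, had 3369, 3022 and 2411 CPM in WT_se against 737, 889 and 757 CPM in WT_DTH. Its knockout values were 2547, 1912 and 2119 CPM (sensitized) and 1725, 2766 and 929 CPM (challenged). Its log2 fold change in wild type was -1.88 ± 0.29, against -2.19 for mt-Nd5 and -2.29 for mt-Cytb on either side of it. The other complex I genes, mt-Nd1, mt-Nd2, mt-Nd3 and mt-Nd4, had log2 fold changes of -1.88, -2.22, -1.90 and -2.34.

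The only mitochondrial gene of complex III, mt-Cytb, stood at 31094, 30437 and 22130 CPM in WT_se and 4605, 6716 and 5741 CPM in WT_DTH. It had 22363, 15519 and 18320 CPM in KO_se and 14196, 26209 and 6331 CPM in KO_DTH. The wild-type groups were apart by a log2 fold change of -2.29 ± 0.38 (adjusted p = 0.00146, edgeR). In complex IV, the terminal oxidase, mt-Co1 had 68696, 70844 and 49459 CPM in WT_se and 12525, 17513 and 14852 CPM in WT_DTH. In the knockout mt-Co1 had 55951, 38098 and 43153 CPM when sensitized and 31296, 55925 and 15859 CPM when challenged. Here too no WT_DTH library reached the WT_se range, and the log2 fold change was -2.07 ± 0.35 (adjusted p = 0.00156, edgeR). The fellow complex IV genes mt-Co2 and mt-Co3 had log2 fold changes of -1.94 and -1.98. In complex V, the ATP synthase, mt-Atp8 fell from 3039, 2887 and 2096 CPM to 463, 707 and 525 CPM, a log2 fold change of -2.24 ± 0.36. Its KO_se libraries had 2129, 1522 and 1852 CPM and its KO_DTH libraries 1140, 2150 and 590 CPM. For mt-Atp6, which forms part of the proton channel, the log2 fold change in wild type was -2.05 ± 0.35.

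The rRNA genes fell less. The RNA of the large ribosomal subunit, mt-Rnr2, had 1776, 1729 and 1181 CPM in WT_se and 730, 904 and 697 CPM in WT_DTH, against 1735, 1353 and 1710 CPM in KO_se and 1149, 1471 and 814 CPM in KO_DTH. The wild-type groups did not overlap, with a log2 fold change of -1.01 ± 0.21 (adjusted p = 0.00552, edgeR). For mt-Rnr1, the RNA of the small subunit, it was -1.31 ± 0.31 (adjusted p = 0.0105, edgeR). Whether the rRNA genes and the coding genes changed by different amounts was not tested in a model.

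Of the tRNA genes, 20 had a group mean of at least 20 counts in some group, and the other 2, mt-Tf and mt-Tv, had 3 to 19 counts per library. The 13 called lower in WT_DTH were mt-Tl1, mt-Ti, mt-Tq, mt-Tm, mt-Ts1, mt-Tk, mt-Tg, mt-Tr, mt-Th, mt-Ts2, mt-Tl2, mt-Te and mt-Tp, with log2 fold changes from -2.36 (mt-Tm) to -0.81 (mt-Tl1). The 9 not called included mt-Tf and mt-Tv, the run mt-Tw, mt-Ta, mt-Tn, mt-Tc and mt-Ty, and mt-Tt and mt-Td. The asparagine tRNA mt-Tn had 35.8, 35.8 and 27.3 CPM in WT_se and 26.5, 30.4 and 38.3 CPM in WT_DTH, and these overlapped (log2 fold change -0.05 ± 0.16). The log2 fold changes of its neighbours were -0.10 (mt-Ta), -0.15 (mt-Tc), -0.36 (mt-Ty) and -0.37 (mt-Tw), and that of the threonine tRNA mt-Tt was -0.19. An SE of 0.16 to 0.18 for mt-Tw, mt-Ta, mt-Tn, mt-Tc and mt-Ty leaves room for small changes that this test would not call. The value for mt-Td, 1.93 ± 0.96, rested on 1 library, WT_DTH replicate 3 with 123 counts, while the other 11 had 2 to 22.

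Some tRNA counts are hard to place. The most counted tRNA gene, mt-Ts1, had 5047 to 22125 counts per library. It overlaps the end of mt-Co1 by 3 bases on the opposite strand. The next, mt-Te, had 2409 to 8890 counts and lies on the strand opposite to mt-Cytb beside it. The library kit was a directional one, but whether strand was used in counting is not given in the sources used here, so reads of these tRNAs and of the strand opposite to them cannot be told apart.

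**Figure D4:**
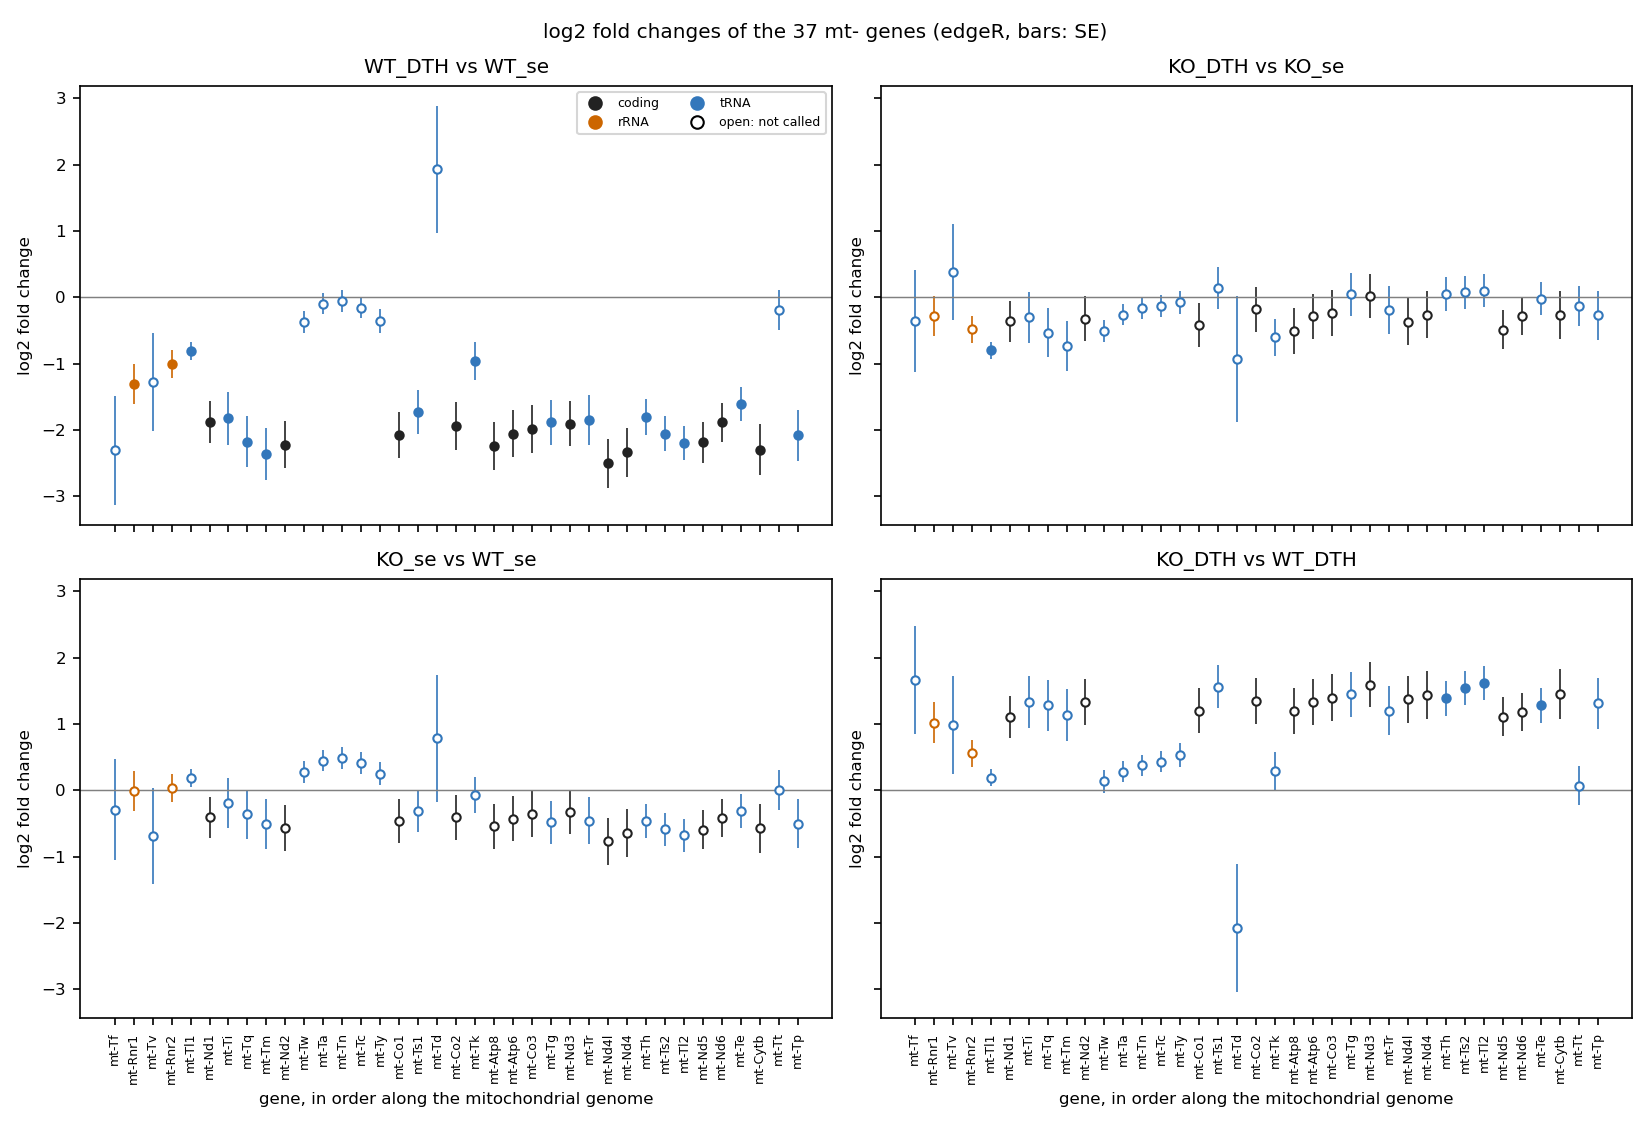
Log2 fold changes with SE (bars) of the 37 genes in order along the mitochondrial genome, in 4 comparisons of 2 groups, with filled points for genes called at an adjusted p under 0.05 and open points for the rest. In WT_DTH against WT_se the coding genes (black) lie between -2.50 and -1.88, while mt-Tw, mt-Ta, mt-Tn, mt-Tc and mt-Ty between mt-Nd2 and mt-Co1 lie between -0.37 and -0.05.

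Leaving out each wild-type library in turn kept 27 or 28 of the calls. The gene on the edge was mt-Tk (log2 fold change -0.96, adjusted p = 0.0312, edgeR), which passed in only 1 of those 6 fits. In a fit without the 4 libraries that had the most salivary RNA of their groups, 27 genes were called. With a salivary score (the mean log2 CPM of 20 markers) as a covariate, 0 of the 37 genes and 0 of the 20,034 genes were called lower, with 16 genes called higher in all. In that fit the coding genes had a median log2 fold change of -0.58, and mt-Co1 stood at -0.58 ± 0.57. The score did not overlap between WT_se and WT_DTH, so the covariate and the challenge cannot be told apart in wild type. Among other markers, 17 of 20 salivary genes and 5 of 8 red cell genes were called lower and 8 of 8 T cell genes lower, while 7 of 8 B cell genes and 8 of 8 myeloid genes were called higher in the same comparison, where 9.77% of all genes were called higher.

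In the knockout, challenge was set against sensitization alone in the same way. Only mt-Tl1 was called, lower in KO_DTH, so 1 of 37 genes fell where 3.86% of all genes tested were called lower. The leucine tRNA mt-Tl1 had 53.5, 45.4 and 46.6 CPM in KO_se and 24.3, 34.4 and 24.9 CPM in KO_DTH. In wild type it had 46.4, 42.9 and 38.5 CPM in WT_se and 24.6, 25.8 and 22.7 CPM in WT_DTH. In both genotypes all challenged libraries lay below all sensitized ones, with log2 fold changes of -0.80 ± 0.13 in the knockout (adjusted p = 0.00235, edgeR) and -0.81 ± 0.13 in wild type (adjusted p = 0.00136, edgeR). The difference between the genotypes was 0.01 ± 0.18, and with the salivary covariate it was -0.73 ± 0.35 (adjusted p = 0.984, edgeR). With that covariate the log2 fold change in wild type was -0.30 ± 0.24 and was not called (adjusted p = 0.762, edgeR). The call in the knockout held whichever of the 6 knockout libraries was left out and under the 10 other settings tried, including the salivary covariate, where the log2 fold change was -1.03 ± 0.15.

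The 13 coding genes had log2 fold changes of -0.50 to 0.02 in the knockout, with a median of -0.29, SEs of 0.28 to 0.36 and adjusted p of 0.350 to 0.983 (edgeR). The spread among the KO_DTH libraries bears on this. Without KO_DTH replicate 2, the library of highest mitochondrial share, the median was -0.85 and mt-Atp8, mt-Nd4l and mt-Nd5 were called lower beside mt-Tl1. Without KO_DTH replicate 3, the library of lowest share, the median was 0.03 and mt-Tl1 alone was called. The same 4 genes were called with the salivary covariate, where the coding median was -1.15. Of all genes, 251 were called lower with the covariate, 389 without KO_DTH replicate 2 and 731 without KO_DTH replicate 3.

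Genotypes were compared in the sensitized state to ask what the loss of miR-451a does before challenge. In KO_se against WT_se 0 of the 37 genes were called by edgeR, where 5.17% of all genes tested were called in either direction. An unadjusted p under 0.05 was found for 5 of the 37, all tRNA genes, and for 4406 of all 20,034 genes. The coding genes had log2 fold changes of -0.77 to -0.33, with a median of -0.46, and the rRNA genes were at -0.01 (mt-Rnr1) and 0.03 (mt-Rnr2). The DESeq2 Wald test called mt-Tl2 (lower) and mt-Tn (higher), where it called 985 of all 20,034 genes lower and 1316 higher. A fit of only these 6 libraries called mt-Nd4l and mt-Nd5 lower, where it called 328 of 18,305 genes lower. The salivary share of every KO_se library was below that of every WT_se library. With the salivary covariate the coding median was 0.44, on the other side of 0, with 0 of the 37 genes called. The salivary score did not overlap between these groups either, so the covariate and genotype cannot be told apart here. Of all 20,034 genes, 72 were called higher and 22 lower in that fit.

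After challenge, KO_DTH had higher values than WT_DTH for most of the 37 genes, but few passed. The 4 called higher were the run mt-Th, mt-Ts2 and mt-Tl2 and the glutamate tRNA mt-Te, against 0.514% of all genes called higher. For mt-Tl2 the KO_DTH libraries had 8.65, 10.6 and 5.30 CPM and the WT_DTH libraries 2.32, 2.92 and 2.72 CPM, while WT_se had 11.8, 13.01 and 11.7 CPM and KO_se 9.36, 5.38 and 8.14 CPM. The challenged groups did not overlap, and the log2 fold change was 1.62 ± 0.26 (adjusted p = 0.0188, edgeR). The serine tRNA mt-Ts2 had 6.39, 7.86 and 4.05 CPM in KO_DTH and 1.82, 2.22 and 2.21 CPM in WT_DTH, with 8.46, 9.50 and 8.09 CPM in WT_se and 7.04, 4.19 and 6.07 CPM in KO_se. Its log2 fold change was 1.55 ± 0.26 (adjusted p = 0.0251, edgeR). The histidine tRNA mt-Th had 4.72, 5.07 and 2.72 CPM in KO_DTH and 1.39, 1.60 and 1.79 CPM in WT_DTH, a log2 fold change of 1.39 ± 0.27 (adjusted p = 0.0422, edgeR). Its sensitized values were 5.29, 6.40 and 4.999 CPM in WT_se and 4.77, 3.14 and 4.19 CPM in KO_se. The glutamate tRNA mt-Te had 131, 203 and 76.8 CPM in KO_DTH and 54.8, 59.5 and 54.8 CPM in WT_DTH, a log2 fold change of 1.28 ± 0.26 (adjusted p = 0.0491, edgeR). It stood at 195, 180 and 141 CPM in WT_se and 159, 117 and 140 CPM in KO_se. For these 4 genes KO_DTH replicate 3 was the lowest knockout library and still above all WT_DTH libraries.

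The coding genes had log2 fold changes of 1.11 to 1.59 in the same comparison. None of the 13 passed, with adjusted p of 0.0555 to 0.130 (edgeR). All 13 had an unadjusted p under 0.05, as did 2832 of all 20,034 genes. Without KO_DTH replicate 3 the test called 22 of the 37 genes higher, all 13 coding genes among them, and without any one of the other 5 challenged libraries it called 0. Calls over all genes moved as well. They were 103 higher with all libraries, 414 without KO_DTH replicate 3 and 11 to 25 in the other 5 fits. The salivary share of every KO_DTH library was above that of every WT_DTH library, but single markers differed. Bpifa2 (7992 CPM), Amy1 (2786 CPM) and Car6 (354 CPM) in KO_DTH replicate 3 lay below all WT_DTH libraries. In contrast, Dcpp2 averaged 14281 CPM in KO_DTH and 20.8 CPM in WT_DTH. Of the 20 salivary genes tested, 2 were called higher in KO_DTH and 0 lower. With the salivary covariate 0 of the 37 genes and only 2 of all 20,034 genes were called, and the coding median was -0.13. The salivary score did not overlap between the challenged groups, so the covariate and genotype cannot be told apart in this fit. Without the 4 libraries richest in salivary RNA 0 of the 37 were called at a coding median of 0.89. In that fit 77 of all 20,070 genes were called higher.

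The response to challenge differed between the genotypes, by the interaction term of the same fit, for 5 of the 37 genes, against 1.67% of all genes called higher. These were mt-Tl2 (difference of log2 fold changes 2.30 ± 0.36), mt-Ts2 (2.14 ± 0.36), mt-Th (1.85 ± 0.37), mt-Te (1.59 ± 0.36) and the complex I gene mt-Nd4l (2.14 ± 0.51). In each, challenge was followed by a fall in wild type. In the knockout the log2 fold changes of the 4 tRNA genes were -0.02 to 0.10, with 0.10 for mt-Tl2 against -2.20 in wild type, and that of mt-Nd4l was -0.36 ± 0.35. The other 12 coding genes had differences of 1.52 to 2.08 that did not pass (adjusted p of 0.0561 to 0.0946, edgeR). Of the salivary markers 9 of 20 were called higher by the same term. The 5 calls depended on single libraries and were lost with the salivary covariate, as given in the closing section. In the covariate fit 0 of all 20,034 genes were called by this term. The comparison of challenged groups, the comparison of wild-type groups and the interaction share the WT_DTH libraries, so their values for 1 gene are not independent.

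Within the mitochondrial pool the proportions of the coding genes shifted by far less than their levels. Complex I genes held 30.4 to 33.3% of coding mitochondrial counts, complex IV genes 43.7 to 47.2%, mt-Cytb 12.3 to 14.6% and complex V genes 8.63 to 9.22%. All proportions per coding mitochondrial count leave out the near-identical nuclear copies. Copies of mt-Co2, mt-Co3, mt-Atp6, mt-Nd3 and mt-Nd4l had 98.9 to 102% of the counts of their gene, while mt-Cytb has no such copy. Proportions with the copies added would differ and were not computed. Over the 12 libraries the log2 CPM of any 2 coding genes had a Pearson r of 0.939 to 0.999 (78 pairs, described only, as these genes share libraries, transcripts and group differences). The share of complex IV genes was 44.6% ± 1.01 in WT_se and 46.8% ± 0.0866 in WT_DTH, and that of mt-Cytb 14.4% ± 0.0683 and 12.7% ± 0.284 (SD, n = 3). Single coding genes in WT_DTH had 0.76 (mt-Nd4l) to 1.18 (mt-Nd1) times their WT_se proportion. Of the 13, 6 lay above all WT_se libraries in this proportion and 5 below, where 81.2% of all genes tested lay above and 0.694% below per coding mitochondrial count. In the knockout the ratio of KO_DTH to KO_se ran from 0.88 (mt-Atp8) to 1.29 (mt-Nd3).

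The rRNAs and some tRNAs shifted more. Per 10000 coding mitochondrial counts, mt-Rnr1 and mt-Rnr2 together had 123, 124 and 113 counts in WT_se and 269, 246 and 218 in WT_DTH. In the knockout they had 157, 169 and 192 in KO_se and 179, 133 and 234 in KO_DTH, so that KO_DTH replicate 3 fell in the WT_DTH range and replicate 2 near WT_se. On the same scale mt-Tn had 1.65, 1.69 and 1.78 in WT_se and 7.10, 5.83 and 8.48 in WT_DTH. Its knockout values were 3.24, 3.49 and 3.38 (sensitized) and 3.51, 2.55 and 8.69 (challenged). The group means of mt-Ta, mt-Tc, mt-Ty, mt-Tw and mt-Tt had the same order, with WT_se lowest, then KO_se and KO_DTH, and WT_DTH highest. In contrast, mt-Tp, a proline tRNA, stayed at 1.19 to 1.44 in all 12 libraries. In WT_DTH both rRNA genes and 11 of 22 tRNA genes lay above all WT_se libraries on this scale, as did 81.2% of all genes tested, because the coding mitochondrial counts in the denominator fell. In KO_se both rRNA genes and 9 tRNA genes lay above all WT_se libraries, against 28.2% of all genes tested. A higher ratio shows unequal change within the pool and does not by itself show a higher level. In CPM, mt-Tn had 54.0, 39.7 and 44.9 in KO_se and 35.8, 35.8 and 27.3 in WT_se (log2 fold change 0.49 ± 0.16, adjusted p = 0.1002, edgeR). The log2 fold changes of mt-Ta and mt-Tc were 0.44 and 0.41, and none of these genes was called by edgeR.

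**Figure D5:**
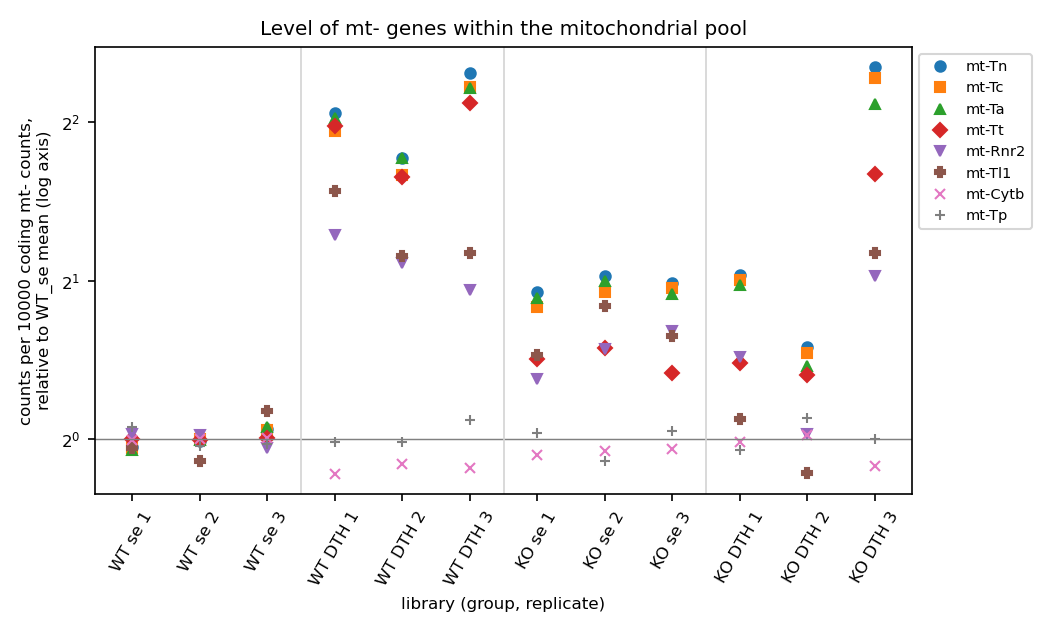
Counts per 10000 coding mitochondrial counts in each library relative to the WT_se mean, on a log axis, for 5 tRNAs, an rRNA and a coding gene chosen after their values were seen (mt-Tn, mt-Tc, mt-Ta, mt-Tt, mt-Tl1, mt-Rnr2 and mt-Cytb) and mt-Tp. Points for mt-Tn, mt-Tc, mt-Ta and mt-Tt are highest in the WT_DTH libraries and in KO_DTH replicate 3, while mt-Tp stays near 1.

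The nuclear partners of these genes did not fall with them after challenge in wild type. Of 79 tested nuclear subunits of complexes I, III, IV and V, 4 were higher and 2 lower in WT_DTH against WT_se, with a median log2 fold change of 0.03, where 9.77% of all genes were called higher and 8.97% lower. Uqcrc1, a core subunit of complex III, was at 0.31 and Cox5a of complex IV at 0.35, while Ndufs1 of complex I was at -0.25 and Cox7a2l, which helps to join complexes, at -0.31. The mean log2 CPM of the 13 coding mitochondrial genes exceeded that of the nuclear subunits by 8.04 ± 0.22 in WT_se and 5.94 ± 0.15 in WT_DTH, and in the knockout by 7.23 ± 0.23 when sensitized and 6.85 ± 0.82 when challenged (SD, n = 3). In KO_se against WT_se 11 of the 79 were higher and none lower, where 3.76% of all genes were called higher, with a median of 0.30 against -0.01 for all genes, and Ndufa3 was at 0.55 and Ndufs8 at 0.59. Challenge in the knockout gave 2 higher and 4 lower, against 5.81% and 3.86% of all genes. KO_DTH against WT_DTH gave 0 in either direction by edgeR, with 25 of the 79 at an unadjusted p under 0.05, as were 2832 of all 20,034 genes. In that comparison the mean log2 CPM of the 79 was 5.23, 5.44 and 5.24 in KO_DTH, above 4.90, 5.13 and 5.20 in WT_DTH, and the log2 fold changes of the coding mitochondrial genes were positive as well. Of the 4 subunits of complex II, which has no mitochondrial gene, none was called in WT_DTH against WT_se. There 0 of them and 6226 of all 20,034 genes had an unadjusted p under 0.05. In KO_se against WT_se 2 of the 4, Sdhd (0.37) and Sdhb (0.33), were higher.

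Of 17 tested genes that read and copy mitochondrial DNA, 2 were higher and 1 lower in WT_DTH, shares near those of all genes (9.77% higher, 8.97% lower). Tfam, which packs mitochondrial DNA and starts its transcription, was higher by 0.40 on the log2 scale, as was the helicase Twnk by 0.49, and Polg2, an accessory subunit of the mitochondrial DNA polymerase, was at -0.41. Among 23 tested genes that process mitochondrial RNA 4 were higher and none lower in WT_DTH, against the same 9.77% and 8.97%, with Tbrg4 at 0.36 and the RNA-degrading enzyme Pnpt1 at 0.50. In KO_se against WT_se 2 of these 23 were higher, Slirp (0.58), which with Lrpprc stabilizes mitochondrial mRNA, and Trmt10c (0.49), a part of the enzyme that cuts the 5′ ends of mitochondrial tRNAs. In KO_DTH against KO_se Trmt10c was lower (-0.42) and Tbrg4 higher (0.36). In the same sensitized comparison Tfam was higher by 0.35, while Polg was at -0.34 and Polg2 at -0.40, all 3 called.

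Of 78 mitochondrial ribosomal protein genes 6 were higher in WT_DTH, a share below the 9.77% of all genes, among them Mrpl37 (0.37) and Mrpl3 (0.38). In KO_se against WT_se 10 of them were higher, where 3.76% of all genes were, among them Mrpl33 (0.53) and Mrpl20 (0.60). Challenge in the knockout gave 2 higher and 1 lower of these 78. Of 13 translation factors of the organelle edgeR called 0 in each comparison of 2 groups, with 0 to 2 at an unadjusted p under 0.05. Of all 20,034 genes, 2832 to 6226 had such a p in these comparisons. Markers of mitochondrial content gave 4 higher and none lower of 17 in WT_DTH, where 9.77% of all genes were higher and 8.97% lower, with Tomm40 of the import channel at 0.58 and the chaperone Hspd1 at 0.51. Of 8 regulators of mitochondrial biogenesis, Pprc1 rose by 0.50 in WT_DTH and by 0.76 in KO_DTH against KO_se. Ppargc1a, a coactivator that is also on the brown fat list, fell by 1.87 in wild type, at 5.81 ± 0.580 CPM in WT_se and 1.59 ± 0.591 CPM in WT_DTH (SD, n = 3). Bnip3l, a receptor of mitophagy, the removal of mitochondria, fell by 0.43 in wild type and by 0.45 in the knockout after challenge.

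With group means removed, the 5 other genes whose log2 CPM followed the coding mitochondrial genes best over the 12 libraries were all near-identical nuclear copies, Gm10925, Gm28439, Gm28437, Gm28661 and Gm10222 (Pearson r of 0.991 to 0.999). The other 2 such copies came next. Past these, and chosen after their values were seen, were Myo19 (r = 0.964), a motor protein of the outer mitochondrial membrane, and Isg20 (r = 0.964), an interferon-induced exonuclease. Next in order were Tmem70 (r = 0.957), Btnl9 (r = 0.950), Ak1 (r = 0.945) and Lgr4 (r = 0.942). Cftr, a chloride channel of gland epithelium (r = 0.933), Fxyd2, a regulator of the sodium pump (r = 0.906), and Krt7, a keratin of duct epithelium (r = 0.904), were at ranks 14, 26 and 28, also chosen after their values were seen. Other genes, such as Chmp5 (r = 0.930) and Dcn (r = 0.928), lay between Cftr and Fxyd2. These correlations describe libraries that share depth and composition and carry no p.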

How the data were processed

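Per the labels, total RNA (RNeasy) went into NEBNext Ultra II Directional libraries. The submitters' processing notes name fastp 0.23.2, HISAT2 2.2.1, StringTie 2.2.1 and the build GRCm39. The authors deposited estimated counts per gene as whole numbers. The counting rule and strand setting are not given in the sources used here. Symbols, gene order, lengths and sequences were taken from GENCODE M21, which is on the older GRCm38, so coordinates are left out.

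All 12 libraries entered one fit with 4 group means in edgeR 4.0.16 (R 4.3.3; quasi-likelihood, TMM, filterByExpr with a minimum count of 10; 8 residual degrees of freedom). P-values are two-sided and adjusted by Benjamini-Hochberg over 20,034 genes, with a threshold of 0.05. The fit was also run on simulated data with 200 genes changed in WT_DTH only. Those data had the same spread setting for all genes and groups, unlike the uneven spread of these libraries, so the run checks the code only. Values are CPM, and log2 CPM used a prior count of 2. Lists defined by symbol pattern kept protein-coding genes. Anticodons were located as the middle of a 7-base loop closed by a paired stem. DESeq2 1.42.0 served as an alternative.

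The genes and lists were chosen with earlier results of these data known. Named genes are all coding and rRNA genes, tRNA genes with a group mean of at least 20 counts, the 2 called genes of smallest p in each list and direction, and the 5 most alike genes; the text names a part. Replicate numbers were not treated as pairs, since the correlations of same-numbered libraries were -0.0984 to 0.141. No 2 libraries of a group agreed within counting noise (chi-squared per degree of freedom 36.8 to 293).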

Additional observations from a re-analysis of the deposited data

Results flagged for a closer look

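The response to challenge differed between wild type and knockout, by the interaction term of the edgeR fit, for 5 mitochondrial genes. The difference of log2 fold changes was 2.298 for mt-Tl2 (adjusted p = 0.0237), 2.136 for mt-Ts2 (adjusted p = 0.0237), 1.85 for mt-Th (adjusted p = 0.0309), 1.593 for mt-Te (adjusted p = 0.0437) and 2.137 for mt-Nd4l (adjusted p = 0.0495). All 3 WT_DTH libraries were lower than all WT_se libraries in each of these genes, while KO_DTH and KO_se overlapped. Of the 20 salivary markers tested 9 were called higher by the same term, and their part in these results was not tested beyond the fits below.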

How the results depend on the processing

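For challenge in wild type, the count of 28 genes was 27 to 29 under the other settings tried and 27 to 28 with 1 library left out, but 0 with the salivary covariate. For challenge in the knockout, the count of 1 became 2 with the DESeq2 Wald test, 4 with the salivary covariate and 1 to 4 with 1 library left out (4 without KO_DTH replicate 2). For genotype in the sensitized state, 0 became 2 with the Wald test and 2 with only the libraries compared. For genotype after challenge, 4 became 2 with no filter, 19 with the Wald test, 1 with only the libraries compared, and 0 with the salivary covariate or without the 4 libraries richest in salivary RNA (replicate 3 of both sensitized groups and replicate 2 of both challenged groups, a setting chosen after seeing the data). It was 0 to 22 with 1 library left out, 22 without KO_DTH replicate 3 and 0 otherwise, where 414 and 11 to 25 of all genes were called higher. For the interaction, 5 became 3 with no filter, 8 with a mean of at least 50 counts, 21 with the Wald test, and 0 with that covariate or without those 4 libraries. It was 0 to 22 with 1 library left out, 22 without KO_DTH replicate 3 and 0 to 3 otherwise. Over all genes the interaction called 334 higher with all libraries, 612 without KO_DTH replicate 3 and 0 to 407 otherwise. The Wald test also called more of all genes higher, 682 for genotype after challenge (103 in the main fit) and 847 for the interaction. For challenge in the knockout it called 1331 of all genes lower (774 in the main fit). With the salivary covariate 2 of all 20,034 genes were called for genotype after challenge and 0 for the interaction. The cause of these moves was not tested. With a replicate block the count was 0 for genotype after challenge and 2 for the interaction, and the block changed no other count by more than 1.5 times. The labels give the replicate numbers no shared source.

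The median of the coding genes changed sign with the salivary covariate for genotype when sensitized (0.44) and challenged (-0.13) and for the interaction (-0.61), while for challenge in the knockout it was -0.853 to 0.0261 with 1 library left out (0.0261 without KO_DTH replicate 3). In the interaction the covariate turned mt-Nd4l to -0.65 and mt-Te to -0.14. The salivary score did not overlap in either genotype comparison or between the wild-type groups, so these moves cannot be told apart from the group differences. In wild type, mt-Tn, mt-Tc, mt-Ta, mt-Tt and mt-Ty, none of them called, turned to 0.122, 0.0713, 0.134, 0.396 and 0.0130 with the covariate, and with 1 library left out mt-Tn and mt-Tc ranged from -0.174 to 0.101 and from -0.281 to 0.003. Shares with near-identical copies, also chosen after seeing the data, were 22.3% (WT_se), 6.87% (WT_DTH) and 18.1% (KO_se). With 3 libraries a group, and KO_DTH shares from 5.75 to 16.0%, small differences in the knockout were not detectable.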
